A study of Mus musculus with 2 samples.

Results

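The cells described here are macrophages and monocytes with little Spp1 and Gpnmb transcript, found among cells from mouse brains with and without a melanoma metastasis. A UMI is a tag that counts 1 captured RNA molecule. A barcode was taken as one of them if it had 1000 or more UMIs from 500 or more genes, no more than 20% of them mitochondrial, at least 5 UMIs over Ms4a7, Pf4 and Lyz2, less than 0.15% of its UMIs from the microglial genes P2ry12, Tmem119, Cx3cr1, Siglech and Gpr34, less than 1% from the melanocyte genes Pmel, Mlana, Tyrp1 and Dct, and fewer than 10 UMIs over Spp1 and Gpnmb. Of 27740 barcodes that passed the quality limits, 807 met this rule. The metastasis library held 752 of them, or 5.47% of its 13745 barcodes, with an exact 95% interval of 5.10% to 5.86%. The naive library held 55, or 0.393% of its 13995 barcodes, with an interval of 0.296% to 0.511%.

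The metastasis library came from a pool of 3 brains of C57BL/6J mice given an intracranial injection of B16/F10-BrM, a brain-tropic line derived from the B16 mouse melanoma. The naive library came from a pool of 3 brains of C57BL/6J mice without tumour cells. Both groups were 10 weeks old, and in both the dissociated brain cells were cleared of myelin on a 30% percoll gradient and selected on beads carrying an antibody to ACSA-2, a surface antigen of astrocytes, before about 10000 cells were loaded for 3-prime single-cell sequencing. The macrophages and monocytes are thus cells that came through an astrocyte enrichment, and their shares are shares of what was recovered after it. The 2 record titles had been exchanged by the submitters after deposition, and the current titles were followed. With 1 library per group there is no replicate check and no test, and every interval covers counting error only.

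Brain macrophages other than microglia sit at the borders of the tissue, in the perivascular spaces, the meninges and the choroid plexus. They are known for the scavenger receptors Mrc1 and Cd163 and for Pf4 and Ms4a7. Classical monocytes, which carry Ly6c2 and the chemokine receptor Ccr2, enter from the blood when the tissue is injured or holds a tumour, lose these genes as they mature into macrophages, and can present antigen on MHC class II.

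The metastasis members had a median of 3977.5 UMIs and 1686 genes, and the naive members 3423 UMIs and 1514 genes. Their mitochondrial share had a median of 1.28% in metastasis and 1.76% in naive members. UMIs summed over members came to 4144028 in metastasis and 261076 in naive. No member barcode was shared between the libraries, and 53 of all kept barcodes were. Transcripts of other cell types were present in both sets. Ttr, the transthyretin gene of choroid plexus epithelium, made up a median of 0.436% of a cell's UMIs in metastasis members and 1.28% in naive members. Levels are given as CPM, the share of a gene or list in the UMIs summed over a set of cells, scaled to a common total. The summed choroid plexus list was at 26503 CPM in metastasis members and 84412 CPM in naive members. Oligodendrocyte genes were at 4526 and 9407 CPM, endothelial genes at 694 and 709 CPM, microglial genes at 2521 and 1490 CPM and melanoma genes at 344 and 107 CPM. Free RNA, estimated from barcodes with 10 to 100 UMIs by genes of other cell types, was put at a fraction of 0.371 of member UMIs in metastasis and 0.792 in naive.

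The values the rule used are given here as a description. Counts over Ms4a7, Pf4 and Lyz2 had a median of 57 UMIs per metastasis member and 27 per naive member. Just inside the limit, with 5 or 6 UMIs, were 41 metastasis and 1 naive members, and just outside it, with 3 or 4, lay 297 metastasis and 9 naive barcodes. The summed level of Ms4a7, Pf4, Lyz2 and Mrc1 in free RNA was 2978 CPM in the metastasis library and 66.3 CPM in the naive library. Spp1 and Gpnmb together had no UMI in 344 metastasis and 52 naive members, 1 to 4 UMIs in 287 and 2, and 5 to 9 UMIs in 121 and 1. The limit of 10 UMIs passed through a continuous range, with 33 metastasis members at 8 or 9 UMIs and 36 barcodes at 10 or 11 just outside. Since this is a number of UMIs, a shallow cell stays under it more easily than a deep one.

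The label was then checked against its markers. Lyz2, the lysozyme of myeloid cells, was at 13841 CPM in metastasis members and 7764 CPM in naive members and had a UMI in 752 and 54 of them. Ms4a7, a membrane protein of macrophages, was at 1113 CPM in metastasis members and 257 CPM in naive members, in 526 and 25 cells. Pf4, a chemokine found in platelets and in border macrophages, was at 522 CPM and 609 CPM, in 313 and 28 cells. Mrc1, the mannose receptor, was not used by the rule and was at 180 CPM in metastasis members and 333 CPM in naive members, in 271 and 30 cells. Ms4a7, Pf4 and Lyz2 chose the cells, so their presence does not check the label. Mrc1, the marker that is independent of the rule, had no UMI in a large part of the cells of both libraries. Among the lists of other immune cells, T and NK cell genes summed to 4.10 CPM in metastasis and 7.66 CPM in naive members. The neutrophil list summed to 2222 CPM in metastasis and 12537 CPM in naive members, and came from few cells: 5 metastasis members held 7406 of the 7437 UMIs of S100a8 and S100a9, and 4 naive members held 2839 of 2840. The label does not describe those 9 cells by their leading genes. Genes of conventional dendritic cells reached 149 CPM in naive members, against 62.3 CPM in metastasis members. At least 3 UMIs of that list were found in 3 of 55 naive and 16 of 752 metastasis cells. Genes of migratory dendritic cells lay the other way, with 42.1 CPM in naive members and 86.9 CPM in metastasis members. Whether some members are dendritic cells was not tested.

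A pair of marker lists was set against each other in each cell, 10 genes of border-associated macrophages and 10 of classical monocytes. A cell with at least 3 UMIs of the border list, and more of these than of the monocyte list, was called border-type, and the reverse monocyte-type. In metastasis 242 members, 32.2% (interval 28.9% to 35.7%), were monocyte-type, 300, 39.9% (36.4% to 43.5%), were border-type and 210 were neither. In naive 21 members, 38.2% (25.4% to 52.3%), were monocyte-type, 19, 34.5% (22.2% to 48.6%), were border-type and 15 were neither. The intervals of both shares overlap between the libraries. These classes are ranges of a count, not cell types: 144 metastasis and 16 naive members lay within 1 UMI of a limit, and 74 and 4 had at least 3 UMIs of both lists. Depth also enters, since border-type cells in metastasis had a median of 5804.5 UMIs, monocyte-type cells 3340.5 and the rest 3190.5. After thinning every cell to 1000 UMIs, 156 metastasis members were monocyte-type and 115 border-type, against 11 and 7 naive members.

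**Figure D1:**
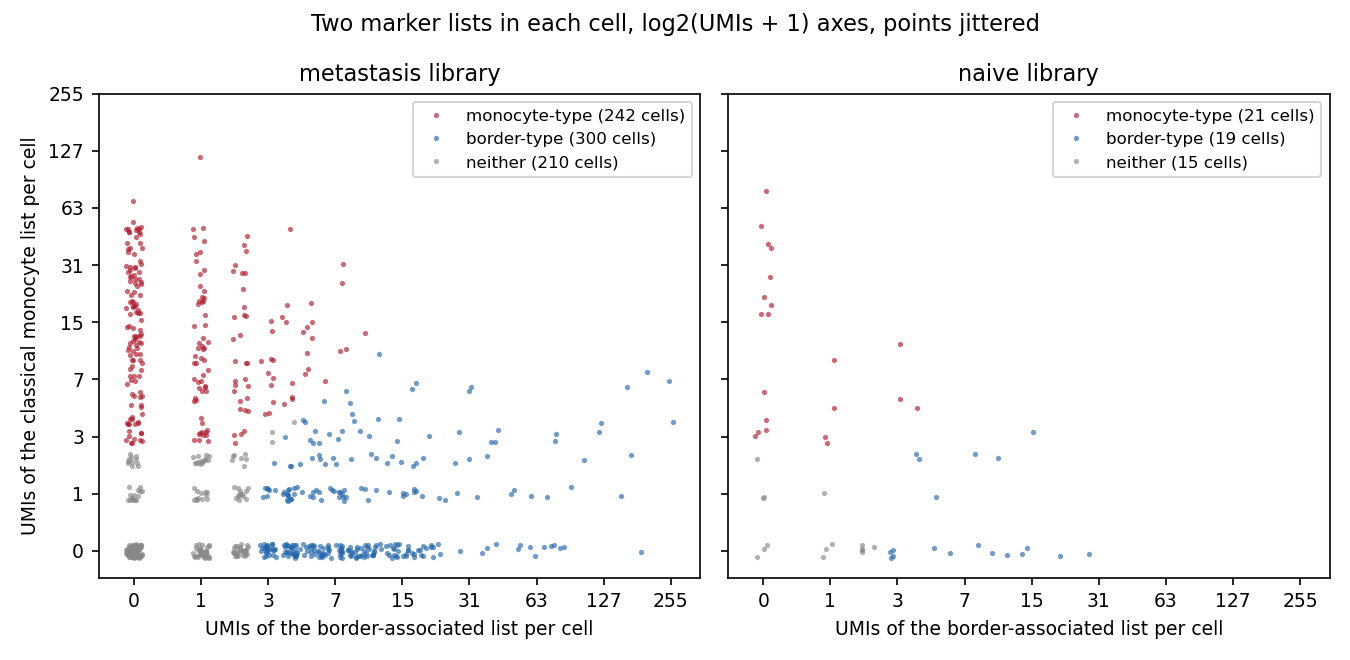
UMIs of the border-associated list (x axis) and of the classical monocyte list (y axis) in each cell of the metastasis library (left) and the naive library (right), on log2(UMIs + 1) axes with jitter, coloured by class. Most cells lie along one axis or the other, and 74 metastasis and 4 naive members have at least 3 UMIs of both lists.

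The border-type class had a different make-up in the 2 libraries. In metastasis it rested on Stab1, a scavenger receptor, detected in 245 of 300 cells, on Mrc1 in 185, on the lectin Clec4n in 145 and on the chemokine Ccl8 in 137. Cd163, the haemoglobin scavenger receptor, was seen in 13 of those cells and Lyve1, the hyaluronan receptor of perivascular macrophages, in 6. In naive, Mrc1 was detected in 17 of 19 border-type cells, Stab1 in 11, the folate receptor Folr2 in 8, Cbr2 in 6, Cd163 in 5 and Lyve1 in 4. Without Ccl8, Stab1 and Clec4n in the list, 14.5% of metastasis members would have been border-type. The monocyte-type class in metastasis carried Ccr2 in 204 of 242 cells, Ms4a4c in 199, Plac8 in 151 and Ly6c2 in 126.

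Metastasis members were compared with naive members over 3291 genes with a mean of at least 50 CPM, and a gene was called by size alone, at least 2-fold with 10 CPM added to both sides. By this rule 200 genes, 6.08%, were higher in metastasis and 191, 5.8%, were lower, and the median over all genes was a log2 ratio of 0.05. Among the genes named by ratio, the largest ratios toward metastasis not tied to a few cells were those of the chemokines Cxcl9 and Ccl5 and of Gbp2. Cxcl9, which draws T cells through Cxcr3, was at 1149 CPM in metastasis members and 7.66 CPM in naive members. It had a UMI in 218 of 752 metastasis cells and in 1 of 55 naive cells, and the log2 ratio was 6.04, with an exact interval of the plain ratio from 5.37 to 10.27. At 1000 UMIs per cell, 21.3% of metastasis and 1.82% of naive members still had a Cxcl9 UMI, against 1.37% and 0.0159% of oligodendrocytes, cells that should lack it. Its UMIs were spread over the metastasis cells, the 10 highest holding 28.1%. The chemokine Ccl5 was at 307 CPM in metastasis members and 7.66 CPM in naive members, in 201 and 1 cells. Gbp2, an interferon-induced GTPase, was at 200 CPM against 7.66 CPM, in 256 and 1 cells.

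Other chemokines of the list followed at lower ratios. Ccl8 was at 796 CPM in metastasis members and 61.3 CPM in naive members (log2 3.5), and 10 cells held 49.2% of its metastasis UMIs. The monocyte attractants Ccl2 and Ccl7 were at 944 and 635 CPM in metastasis, against 188 and 119 CPM in naive members (log2 2.27 and 2.32). Ccl2 was found in 416 metastasis and 13 naive cells, and the transmembrane chemokine Cxcl16 in 504 and 14, at 375 and 76.6 CPM (log2 2.15). The neutrophil attractant Cxcl2 lay the other way, at 486 CPM in metastasis members and 1256 CPM in naive members (log2 -1.35). Over the chemokine list 6 of 14 measured genes were higher in metastasis by 2-fold or more and 1 was lower, with a median of 0.85. These 14 include Pf4, a gene of the rule.

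The interferon-stimulated list had 19 measured genes, of which 9 were at least 2-fold higher in metastasis and none was lower, with a median log2 ratio of 0.97. Next to Cxcl9 and Gbp2 stood the GTPase Iigp1, at 137 CPM in metastasis members and 19.1 CPM in naive members (log2 2.33). Ifitm3 had the smallest ratio, at 1883 and 1482 CPM (log2 0.34). Per cell, the list took a median of 0.631% of UMIs in metastasis and 0.296% in naive members. Promoters of some of these genes are shown because 9 genes of the list passed 2-fold: the 250 bases before the RefSeq start site, with each match to GAAA, then 2 bases of any kind, then GAAA again, the core of the interferon-stimulated response element read on either strand, in capitals. The windows are from GRCm38.p6, at chr3:142620413-142620662 (plus strand) for Gbp2, chr5:92348890-92349139 (minus strand) for Cxcl10, chr4:156200819-156201068 (minus strand) for Isg15 and chr5:92328080-92328329 (minus strand) for Cxcl9.
Gbp2: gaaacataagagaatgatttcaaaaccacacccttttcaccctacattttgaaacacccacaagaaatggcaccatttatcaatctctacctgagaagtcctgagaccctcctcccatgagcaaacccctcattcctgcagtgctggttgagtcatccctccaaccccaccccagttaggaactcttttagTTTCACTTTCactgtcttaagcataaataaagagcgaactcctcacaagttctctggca
Cxcl10: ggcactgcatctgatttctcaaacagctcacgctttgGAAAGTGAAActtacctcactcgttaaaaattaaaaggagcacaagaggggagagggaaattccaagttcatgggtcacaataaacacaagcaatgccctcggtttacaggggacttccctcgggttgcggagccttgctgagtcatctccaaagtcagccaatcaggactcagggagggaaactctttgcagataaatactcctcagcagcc
Isg15: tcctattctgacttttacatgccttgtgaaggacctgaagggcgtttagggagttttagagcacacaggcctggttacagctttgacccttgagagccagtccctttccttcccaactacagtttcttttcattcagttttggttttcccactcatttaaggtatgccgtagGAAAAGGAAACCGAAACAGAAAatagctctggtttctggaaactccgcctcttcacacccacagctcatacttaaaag
Cxcl9: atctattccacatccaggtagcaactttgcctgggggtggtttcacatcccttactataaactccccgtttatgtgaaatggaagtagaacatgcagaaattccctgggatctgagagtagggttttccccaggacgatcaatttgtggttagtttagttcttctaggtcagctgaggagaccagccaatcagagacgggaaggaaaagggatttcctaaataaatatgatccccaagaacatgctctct
Gbp2 had 1 match starting 59 bases before the start site, on the opposite strand, Cxcl10 had 1 starting 213 bases before it, and Isg15 had 3 that overlap, starting 78, 72 and 66 bases before it. In the Cxcl9 window, with the largest ratio of all, these letters did not occur. RefSeq promoters of 300 bases, which run 50 bases past the start site, were found for 12 of the 19 measured genes, and 7 of those held the motif, namely Bst2, Cxcl10, Gbp2, Gbp7, Ifit3, Ifitm3 and Isg15. Among genes that passed 2-fold, 3 of the 6 promoters found held it. Cxcl10 did not pass, at 371 CPM in metastasis members and 192 CPM in naive ones (log2 0.92), and 46 of its 50 naive UMIs were in 1 cell. Of all 32851 such promoters, 3.44% held it. A match describes letters and not a bound site.

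Genes of antigen presentation split by class. Of 12 measured MHC class I and peptide-loading genes, 10 were higher in metastasis by 2-fold or more and none was lower, with a median of 1.22. B2m, the invariant light chain, was at 2686 CPM in metastasis members and 1302 CPM in naive members (log2 1.04). The peptide transporter Tap1 was at 112 and 23 CPM (log2 1.88), the immunoproteasome subunit Psmb9 at 212 and 72.8 CPM (log2 1.42) and the heavy chain H2-K1 at 1826 and 804 CPM (log2 1.17). Of the MHC class II genes, 0 of 6 measured ones passed 2-fold in either direction and their median was -0.29. H2-Aa was at 2915 CPM in metastasis members and 3769 CPM in naive members, and Cd74, the invariant chain, at 4802 and 5734 CPM. The class II median lay between -1.01 and 0.24 over the other settings, so its sign is not settled. By summed level, the monocyte-type and border-type classes lay in opposite directions. The monocyte-type classes differed in make-up, since the neutrophil list took up 32630 CPM of the naive class but 9492 CPM of the metastasis class. What part this has in the class II values of monocyte-type cells was not tested. The summed class II list was at 33844 CPM in metastasis monocyte-type cells and 18749 CPM in naive ones, and at 7805 and 14544 CPM in border-type cells, where the median over the genes was -0.85. At least 1% of UMIs came from this list in 78.9% of metastasis (interval 73.2% to 83.9%) and 38.1% of naive monocyte-type cells (18.1% to 61.6%), and in 32.7% (27.4% to 38.3%) and 47.4% (24.4% to 71.1%) of border-type cells.

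Complement, lysosomal and lipid genes were on the higher side in metastasis. Among 8 complement genes 6 were at least 2-fold higher and 1 was lower (median 1.18), with C1qa at 5023 CPM in metastasis members and 2371 CPM in naive members and the receptor C3ar1 at 314 and 111 CPM. Of 21 lysosomal genes 7 were higher and none was lower (median 0.76). The protease Ctsd was at 3383 CPM in metastasis members and 877 CPM in naive members (log2 1.94), and the protease inhibitor Cst3 at 3671 and 5860 CPM (log2 -0.67). In the lipid list 4 of 12 genes were higher (median 0.97), led by lipoprotein lipase, Lpl, at 274 and 30.6 CPM in 260 and 5 cells (log2 2.80). The lipid droplet coat Plin2 followed at 218 and 72.8 CPM, and Fabp5 at 906 and 329 CPM. Fabp5 in metastasis members lay below its level in free RNA of that library, 1004 CPM. Of the 12 lipid genes 9 reached the level in free RNA where they were higher. The low-affinity Fc receptor Fcgr4 was at 253 CPM in metastasis members and 46.0 CPM in naive members (log2 2.23), and the haem oxygenase Hmox1 at 317 and 65.1 CPM (log2 2.12).

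A shift of myeloid genes as a whole stands beside these lists. The pan-myeloid list, which the rule did not use, had a median of 0.96 with 5 of 10 genes higher, while 5 of 6 astrocyte genes (median -1.36), 4 of 9 oligodendrocyte genes (-1.0), 6 of 6 ependymal genes (-1.18) and 4 of 6 choroid plexus genes (-1.03) passed 2-fold downward. Other lists of foreign markers did not lie lower: the median was 0.52 for 6 microglial genes (1 higher) and 0.63 for 5 endothelial genes (1 higher, 2 lower), and of 2 melanoma genes Dct was higher and Sox10 was lower. The rule itself used Dct and some of the microglial genes. When an estimate of the free RNA was subtracted from both libraries, the medians were 0.59 for MHC class I, 0.53 for complement, 0.30 for the interferon list, 0.06 for chemokines, 0.70 for lysosome and 1.02 for lipid genes. The fractions used are those given above, which are too high. Too much was thus subtracted, and these medians are not those of cells without free RNA.

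**Figure D2:**
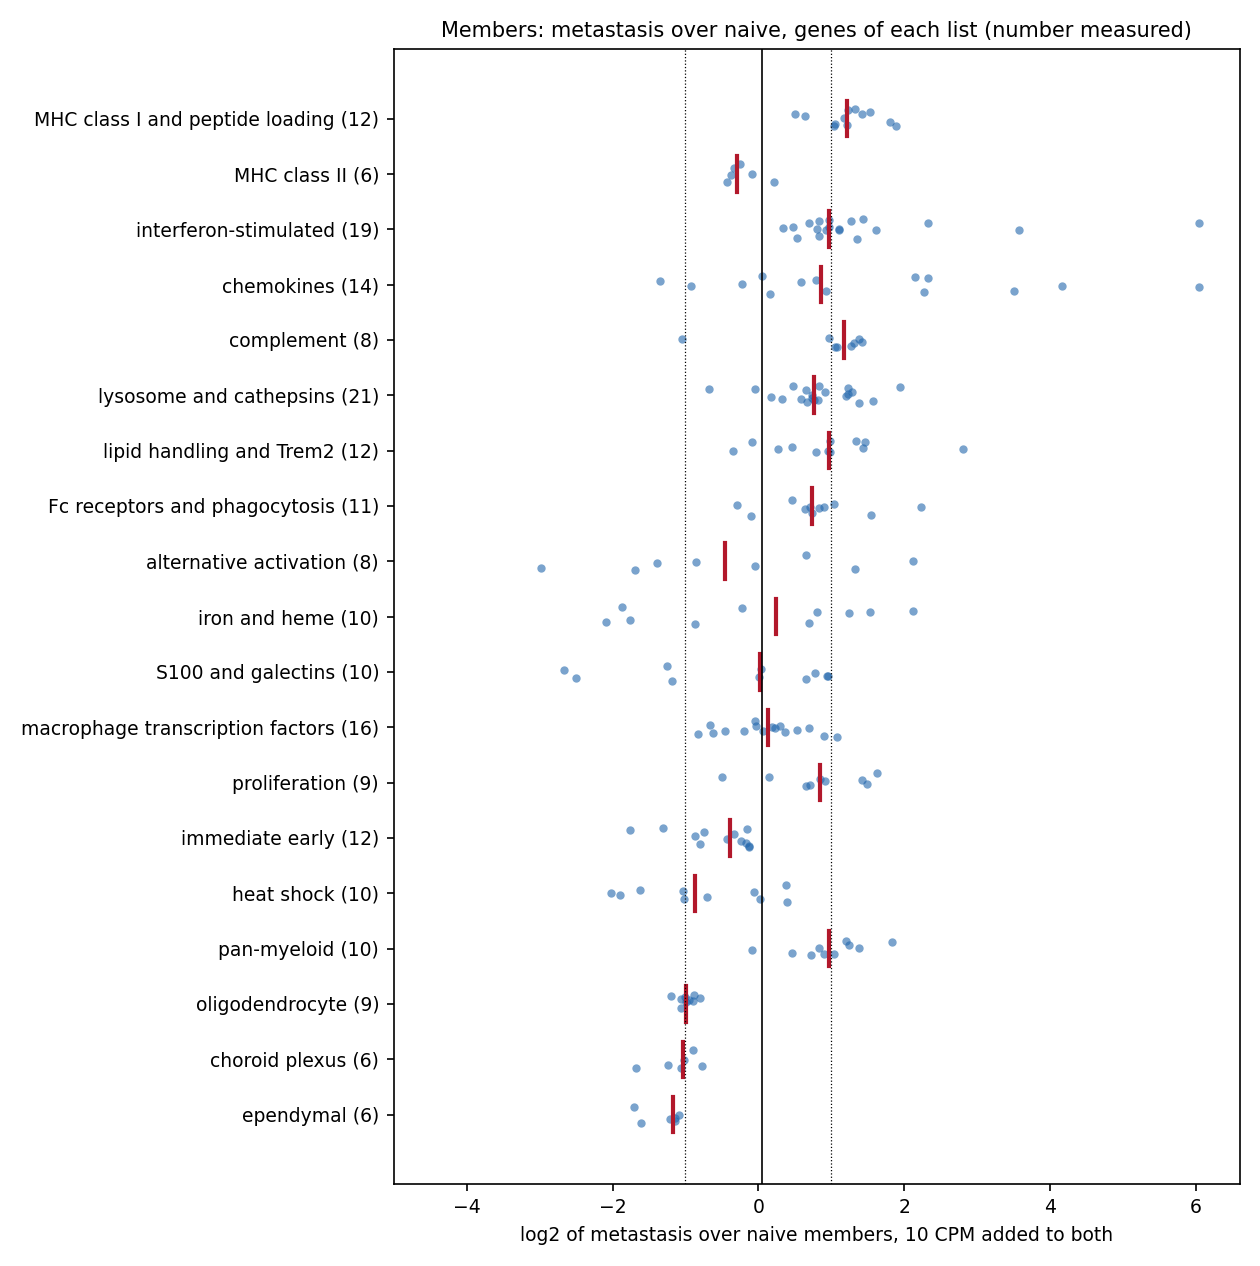
Each point is a gene measured in the named list, placed by its log2 ratio of metastasis over naive members with 10 CPM added to both, the red bar is the median of the list, the solid line the median of all genes (0.05) and the dotted lines mark 2-fold. MHC class I, interferon and complement lists lie to the right as does the pan-myeloid list (0.96), and oligodendrocyte, choroid plexus and ependymal markers lie to the left.

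Genes lower in metastasis members included stress genes, alternative activation genes and neutrophil genes. Heat shock genes were at least 2-fold lower in 5 of 10 cases and higher in none (median -0.87), with Hspa1a at 354 CPM in metastasis members and 1348 CPM in naive members (log2 -1.90), and its close copy Hspa1b, with which it may share reads, at 189 and 797 CPM. Among 12 immediate early genes Egr1 (101 and 364 CPM, log2 -1.76) and Jun (1008 and 2513 CPM, log2 -1.31) were lower and none was higher. Both groups of genes are known to respond to dissociation, and whether the 2 preparations differed in it was not tested. The galactose lectin Mgl2 was at 28 CPM in metastasis members and 291 CPM in naive members, in 43 of 752 and 14 of 55 cells (log2 -2.99). Also lower were Clec10a, a second lectin of this kind, at 24.4 and 80.4 CPM, and the prostaglandin dehydrogenase Hpgd at 36.9 and 161 CPM. Over the alternative activation list 2 genes were higher, 3 were lower and the median was -0.45.

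Some of the most extreme ratios rest on a handful of cells. S100a9 and S100a8 were at 923 and 872 CPM in metastasis and at 5895 and 4983 CPM in naive members (log2 -2.66 and -2.50). Without the 5 metastasis and 4 naive cells that held at least 10 of these UMIs, the log2 ratios were 0.17 and 0.21. Wfdc21 had a log2 ratio of -2.25 over all members and of 0.035 without these cells. Retnlg had a log2 ratio of -4.55 over all members, with 155 metastasis and 287 naive UMIs, and no UMI in either library without them. In the other direction, Igfbp3 had 1447 UMIs in metastasis and none in naive members, at least 30.4-fold higher against a floor of 3 counts, and Col4a1, Igfbp7 and Ctla2a had log2 ratios of 3.34, 2.97 and 2.72. These are genes of vessel cells. Of the metastasis members 16 had at least 10 UMIs of the endothelial list and held 1425 of the 1447 Igfbp3 UMIs, 1719 of 1825 for Col4a1, 3232 of 3398 for Igfbp7 and 1006 of 1070 for Ctla2a. Without them and 2 such naive cells the ratios were 0.69 for Igfbp3, 0.06 for Col4a1, -0.47 for Igfbp7 and -0.45 for Ctla2a. These 16 cells held 12.8% of all member UMIs and 33.0% of those of the proliferation list.

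Border-type cells of the 2 libraries were compared, 300 metastasis against 19 naive cells, although the class had a different make-up in each. Cells with endothelial genes held 20.7% of the metastasis and 5.90% of the naive border-type UMIs. With so few naive cells 13.8% of 3413 genes were at least 2-fold higher and 13.9% lower. Cxcl9 was at 1399 CPM in metastasis and had no UMI in naive border-type cells, at least 48.5-fold higher against a floor of 3 counts. Cxcl10, a second Cxcr3 ligand, was at 337 and 9.62 CPM, and Lpl at 326 and 9.62 CPM. Of 14 chemokines 9 were at least 2-fold higher and 1 was lower, with a median of 1.76 against 0.02 for all genes. These 14 include Ccl8, which is on the border list and among the 9, and Pf4, a gene of the rule. MHC class I genes were higher in 9 of 10 cases (median 1.35). The pan-myeloid list was higher in 6 of 10 (median 1.21), and 8 of 8 ependymal genes (median -2.41), 9 of 9 oligodendrocyte genes (-1.33) and 5 of 6 choroid plexus genes (-2.09) were lower. Their part in the other lists was not tested. Of 8 measured genes of the border list 2 were higher in metastasis and 5 were lower. Mrc1 was at 272 CPM in metastasis border-type cells and 654 CPM in naive ones (log2 -1.23), Cd163 at 8.42 and 106 CPM (log2 -2.65), Lyve1 at 6.65 and 96.2 CPM (log2 -2.67) and Folr2 at 51.0 and 135 CPM (log2 -1.25). The other way lay Ccl8 at 1445 and 144 CPM, Clec4n at 194 and 57.7 CPM and, by less than 2-fold, Stab1 at 387 and 308 CPM. These 7 genes are on the list that set the class, so their levels are a description of what the class holds in each library. Haemoglobin genes such as Hbb-bs (78.0 and 1751 CPM) were also lower and reversed to a log2 ratio of 0.24 when the cells with endothelial genes were left out.

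Among the metastasis members, cell cycle genes were detected most often in border-type cells. A UMI of Mki67, Top2a, Cdk1 or Birc5, which mark cells in division, was present in 12.4% of monocyte-type cells (interval 8.52% to 17.2%), in 35.3% of border-type cells (29.9% to 41.0%) and in 19.0% of the rest. At 1000 UMIs per cell these shares were 6.61%, 19.3% and 7.62%, against 3.46% of oligodendrocytes in the same library, whose median depth was 2822.5 UMIs. Leaving out cells with endothelial genes gave 17.6% of border-type cells (interval 13.4% to 22.5%) and 6.67% of monocyte-type cells (3.86% to 10.6%). The trait is not particular to the members. Metastasis macrophages with at least 10 UMIs over Spp1 and Gpnmb, described below, had such a UMI in 30.6% of cells, or 8.44% at 1000 UMIs. For microglia of that library the shares were 14.4% and 6.31%. In naive members 3 of 55 cells had such a UMI, all of them monocyte-type, and 0 of 19 border-type cells, which allows a share of up to 17.6%. The naive monocyte-type class held the neutrophil list at 32630 CPM, and whether these 3 cells carry it was not tested. Top2a, a DNA topoisomerase of dividing cells, was at 56.4 CPM in monocyte-type and 223 CPM in border-type metastasis cells, and at 48.8 and 154 CPM without the cells with endothelial genes. Its level in free RNA of the metastasis library was 121 CPM, above that of the monocyte-type cells. The 7 deepest members, all border-type with 47272 to 90521 UMIs, held 180 to 365 endothelial UMIs and 93 to 736 proliferation UMIs each.

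Within the metastasis library, 242 monocyte-type cells were set against 300 border-type cells, as a description of how the members vary. Of 3225 genes 156, 4.84%, were at least 2-fold higher in monocyte-type cells and 138, 4.28%, were lower. The clearest group was MHC class II, with all 7 measured genes higher and a median of 1.99. H2-Aa was at 6869 CPM in monocyte-type and 1563 CPM in border-type cells (log2 2.13), Cd74 at 10969 and 2752 CPM (log2 1.99), and Ciita, the master activator of these genes, at 132 and 25.7 CPM (log2 1.99). By cell, 191 of 242 monocyte-type cells, 78.9% (interval 73.2% to 83.9%), had at least 1% of their UMIs from the class II list, against 98 of 300 border-type cells, 32.7% (27.4% to 38.3%). Both classes were mixed, since 11 monocyte-type and 44 border-type cells had no class II UMI at all. The median share of UMIs was 3.61% in monocyte-type and 0.202% in border-type cells.

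Interferon genes were higher in monocyte-type cells too, 13 of 25 with none lower and a median of 1.05. Ifi27l2a was at 2568 CPM in monocyte-type and 480 CPM in border-type cells (log2 2.40), the antiviral enzyme Rsad2 at 210 and 39.5 CPM (log2 2.15) and the ubiquitin-like Isg15 at 486 and 118 CPM (log2 1.96). Cxcl9 did not follow them. It was detected in 77 of 242 monocyte-type cells, 31.8% (26.0% to 38.1%), and in 109 of 300 border-type cells, 36.3% (30.9% to 42.1%), with overlapping intervals. Among the cells with a Cxcl9 UMI, 66 of the 77 monocyte-type and 60 of the 109 border-type cells also had at least 1% of UMIs from MHC class II.

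**Figure D3:**
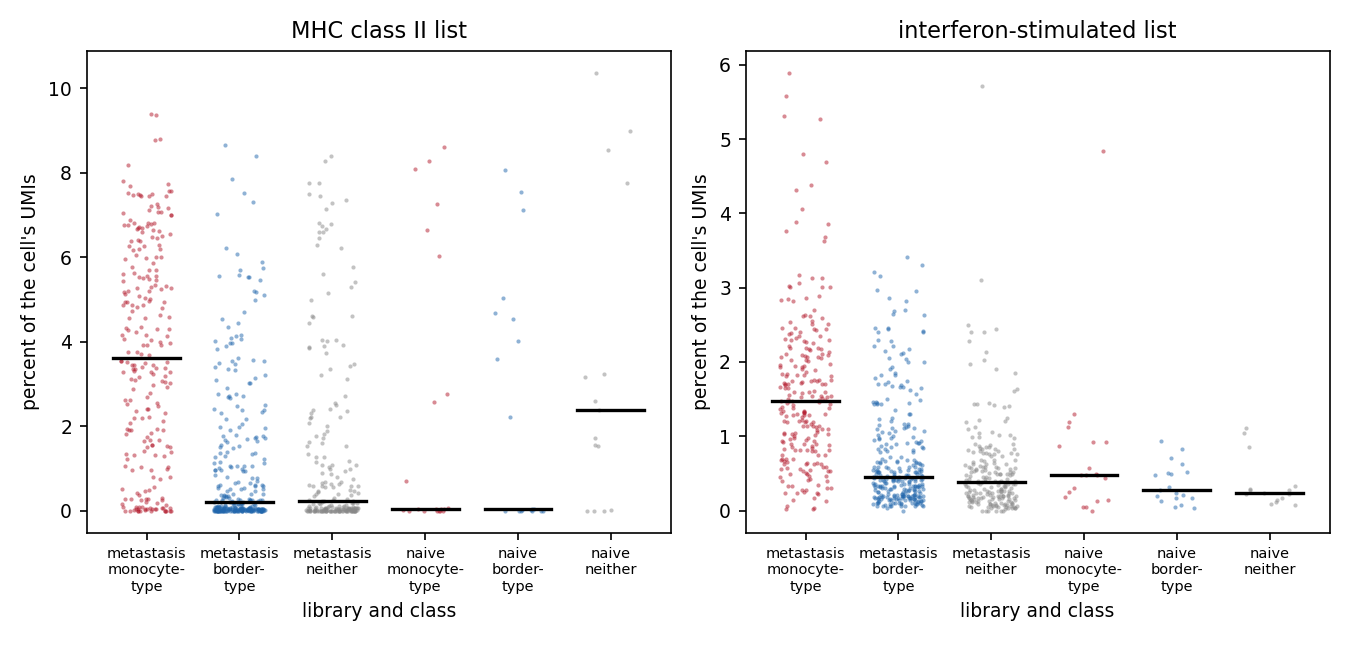
Percent of each cell's UMIs from the MHC class II list (left) and the interferon-stimulated list (right), by library and class, with 1 point per cell and a bar at the median. Metastasis monocyte-type cells have medians of 3.61% and 1.47%, and metastasis border-type cells 0.202% and 0.459%.

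Other genes higher in monocyte-type cells were the cytokine Il1b, at 1971 CPM in monocyte-type and 131 CPM in border-type cells (log2 3.82, in 163 and 62 cells), the calcium-binding proteins S100a4 at 557 and 18.2 CPM (log2 4.33) and S100a6 at 1516 and 269 CPM (log2 2.45), the aspartic protease Napsa at 191 and 9.31 CPM, Ly6i at 226 and 5.32 CPM, and the chemokine Ccl9 at 215 and 38.6 CPM. S100a9, S100a8, Ngp, Camp and Lcn2 had still larger ratios and came from the 5 cells named above. Among the genes lower in monocyte-type cells, the growth factor Igf1 was at 30.3 CPM in monocyte-type and 228 CPM in border-type cells (log2 -2.56) and Gas6, a bridge for the uptake of dying cells, at 61.7 and 205 CPM (log2 -1.58). Pdgfb was at 34.5 and 101 CPM, and at 30.4 and 54.2 CPM, less than 2-fold apart, without the cells with endothelial genes. Apoe was at 18356 and 46275 CPM (log2 -1.33), the lipid receptor Trem2 at 313 and 868 CPM (log2 -1.45) and Ctsd at 1020 and 3809 CPM (log2 -1.89). Lysosomal genes were lower in 4 of 22 cases and higher in none (median -0.50), and lipid genes lower in 4 of 11 and higher in none (median -0.36). The endothelial genes Igfbp3, Cd34, Kdr, Emcn, Igfbp7, Sparc, Col4a1 and Ctla2a were among the lowest here and rest on the border-type cells with endothelial genes, without which 86 genes, not 138, were lower.

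**Figure D4:**
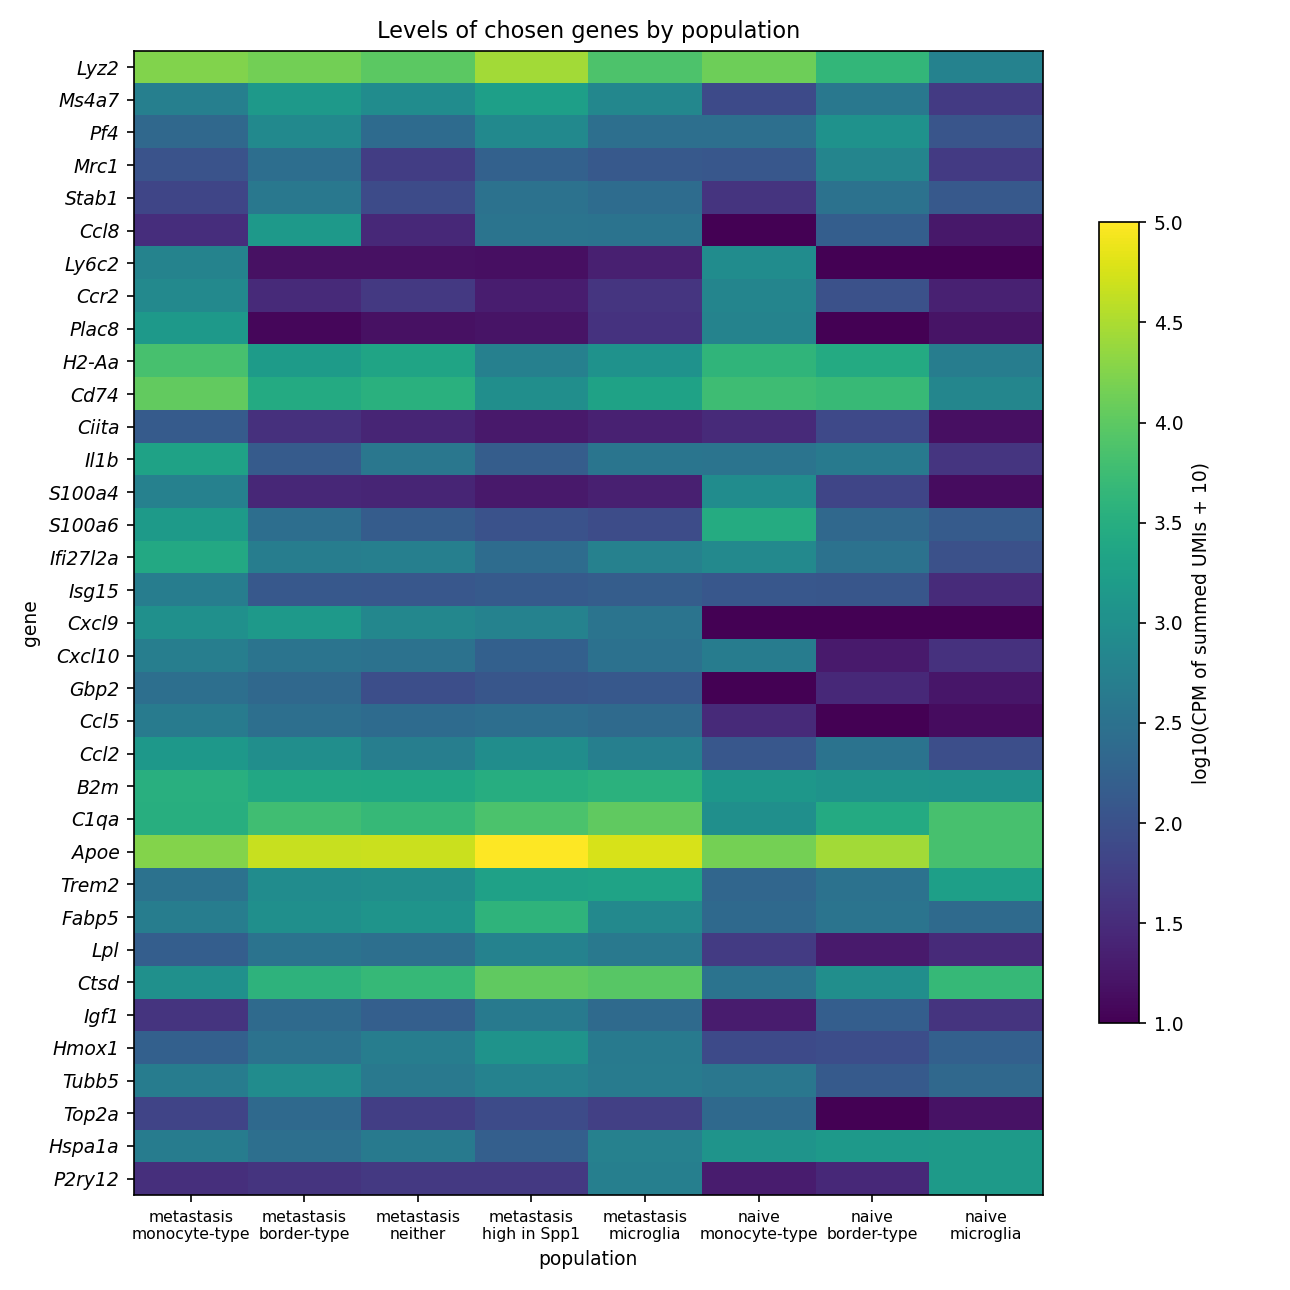
Level of chosen genes as log10(CPM of summed UMIs + 10) in each population, metastasis populations on the left and naive ones on the right. H2-Aa and Il1b are brightest in metastasis monocyte-type cells (6869 and 1971 CPM), Ccl8 in metastasis border-type cells, and Cxcl9 is dark in every naive column.

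The nearest population is the 474 metastasis macrophages that met the same rule but had at least 10 UMIs over Spp1 and Gpnmb. In naive 2 barcodes did, too few for a comparison. Since the 2 sets were divided by Spp1 and Gpnmb in the same cells, the values are a description: of 2962 genes 138, 4.66%, were at least 2-fold higher in the cells low in Spp1 and 47, 1.59%, were lower, with a median over all genes of 0.17, the shift against which the values below are to be read. Scaling by median of ratios gave 96 higher and 75 lower. MHC class II was higher in 5 of 6 genes, with a median of 2.37, and H2-Eb1 was at 3047 CPM in the cells low in Spp1 and 428 CPM in the cells high in it. Monocyte genes were higher as well, with Plac8 at 342 and 5.97 CPM (log2 4.46), Ccr2 at 193 and 10.9 CPM in 249 and 17 cells (log2 3.28) and Il1b at 610 and 142 CPM (log2 2.03). Lower in the cells low in Spp1 were the fatty acid carrier Fabp5, at 906 and 3949 CPM (log2 -2.11), Hmox1 at 317 and 1135 CPM (log2 -1.81), the iron exporter Slc40a1 at 59.6 and 195 CPM (log2 -1.56), the stress cytokine Gdf15 at 79.2 and 271 CPM (log2 -1.66) and Igf1 at 166 and 440 CPM (log2 -1.36). Of 22 lysosomal genes 8 were lower and none was higher (median -0.86), and so were 5 of 12 lipid genes (median -0.97) and 3 of 7 iron genes. The pan-myeloid list had a median of -0.38, while 5 of 5 choroid plexus genes (median 1.44) and 5 of 9 oligodendrocyte genes (1.08) were higher in the cells low in Spp1. The estimated fraction of free RNA was 0.371 in the cells low in Spp1 and 0.192 in the cells high in it, and its part in these differences was not tested. Both fractions are higher than the Ttr level allows, at 25990 and 9574 CPM against 78670.5 CPM in free RNA. Igfbp7, Igfbp3, Col4a1 and Ctla2a stood among the highest ratios here too and rest on the 16 cells with endothelial genes.

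Some of these genes were followed along the count that set the limit. Along 0, 1 to 4, 5 to 9, 10 to 29 and 30 or more UMIs of Spp1 and Gpnmb, with 344, 287, 121, 221 and 253 cells, Ccr2 was at 325, 137, 52.6, 15.9 and 7.68 CPM. H2-Aa was at 4516, 2210, 1301, 642 and 475 CPM along the same order. Both fell at every step, Ccr2 by the largest factor across the limit, and Ctsd did the reverse, at 1955, 3573, 5833, 8440 and 11997 CPM. Median depth went the same way as Ctsd, with 3373, 4539, 5554, 5745 and 7625 UMIs. Among cells with 4000 to 8000 UMIs, 105, 109, 50, 113 and 121 in number, Ccr2 was at 253, 117, 33.2, 7.58 and 4.02 CPM. H2-Aa in these cells was at 4667, 2856, 1380, 634 and 182 CPM, and Ctsd at 2328, 4891, 7240, 9245 and 13216 CPM. Cxcl9 kept near one level up to 29 UMIs in the same depth range, at 1614, 1395, 1522 and 1095 CPM, and was at 117 CPM in the cells with 30 or more.

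**Figure D5:**
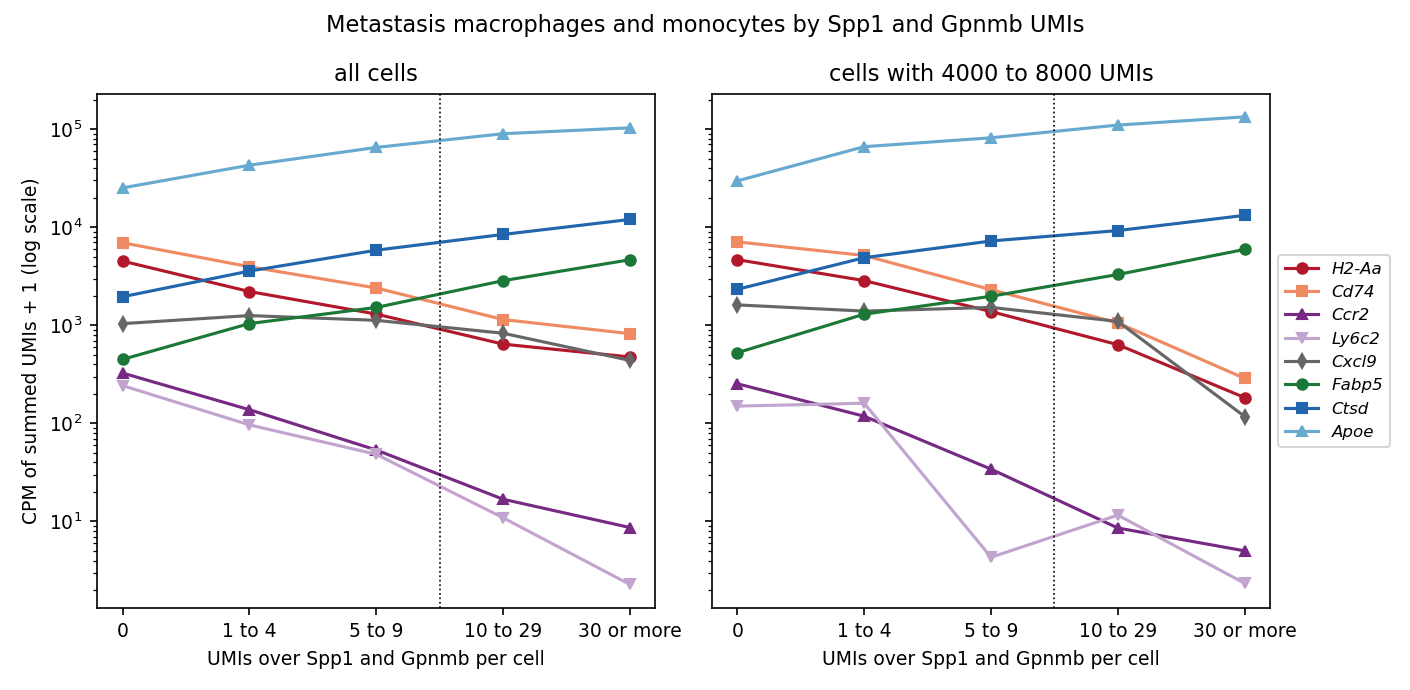
CPM of summed UMIs plus 1, on a log axis, for 8 genes in metastasis macrophages and monocytes grouped by their UMIs over Spp1 and Gpnmb, in all cells (left) and in cells with 4000 to 8000 UMIs (right), with the dotted line at the limit of the rule. H2-Aa goes down and Ctsd goes up across the limit in both panels, from 4516 to 475 CPM and from 1955 to 11997 CPM in all cells.

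Against the 1141 microglia of the same library, which have at least 0.15% of UMIs from the microglial genes, 122 of 3224 genes (3.78%) were at least 2-fold higher in the macrophages and monocytes and 139 (4.31%) were lower. The microglia list was lower in 10 of 11 genes (median -2.48), 5 of which the rule used. S100 and galectin genes were higher in 7 of 10 (median 2.15) and MHC class II genes in 4 of 6 (median 1.34), and MHC class I genes passed 2-fold in neither direction (0 of 13, median -0.12). Cxcl9 was present at 1000 UMIs per cell in 21.3% of the macrophages and monocytes, in 9.07% of the macrophages high in Spp1 and in 6.84% of microglia.

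In the GENCODE annotation of GRCm38, the build the submitters name, the chemokine genes at the centre of the comparison lie on chromosomes 5 and 11: Cxcl9 on chromosome 5 at 92321347 to 92328079 (minus strand), with Cxcl10 near it at 92346638 to 92348889, Ccl8 on chromosome 11 at 82115185 to 82116799 (plus strand) and Ccl5 on the same chromosome at 83525778 to 83530518 (minus strand). Gbp2 is on chromosome 3 at 142620602 to 142638008 (plus strand).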

How the data were processed

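The deposited matrices hold UMI counts, whole numbers per gene and barcode with no filter on barcodes, for 55401 genes and 6794880 barcodes per library. The authors counted reads with STARsolo against GRCm38, per the submitters' processing notes. Total depth was 89193669 UMIs in the metastasis and 69445557 in the naive library, and the kept barcodes (13745 and 13995) are more than the 10000 cells loaded per library.

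UMIs of the chosen cells were summed and scaled to CPM by their total. A log2 ratio has 10 CPM added to both sides. The exact conditional binomial 95% interval is that of the plain ratio, so for a gene near 0 in one group the log2 ratio can lie outside it. Calls are by size, at least 2-fold among genes with a mean of at least 50 CPM. Shares have exact Clopper-Pearson intervals. These intervals cover counting error only. A floor is 3 counts over the group. The scripts were tested on simulated data. Named genes are the highest and lowest ratios (12 each way between libraries, 10 each way otherwise) with a mean of at least 100 CPM and a level no lower than that in free RNA, and in each list the 3 highest and the lowest; other list genes were named after their values were seen. The members and lists were chosen with earlier results of these data known. Doublets were kept: scrublet in scanpy 1.11.5 marked 0 metastasis and 855 naive barcodes with its own threshold, so the barcodes with the highest 6% of scores in each library, 81 metastasis and 12 naive members, were removed only as an alternative. Gene identifiers matched GENCODE M21 for 54349 of 55401. One list gene, H2afz, was not used here. Python 3.11.15, scipy 1.17.1, numpy 2.4.6, pandas 2.3.3 and matplotlib 3.10.9 were used, with promoter sequences from RefSeq on GRCm38.p6.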

Additional observations from a re-analysis of the deposited data

How the results depend on the processing

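No paired analysis was possible because each group is 1 library. Results over all members were recomputed under 18 other settings and those by class under 20, and counts of genes also at 2 other minimum levels. Of these, the ones that leave out cells with endothelial genes, with S100a8 and S100a9 or with genes of other types, and the border list without Ccl8, Stab1 and Clec4n, were chosen after seeing the data. The causes of the moves below were not tested. The metastasis share of 5.47% was 6.18% at 2000 UMIs or more, 4.91% and 7.63% with at least 10 and at least 3 UMIs over Ms4a7, Pf4 and Lyz2, 2.97% with microglial genes under 0.05% (naive 0.214%) and 4.59% under 5 UMIs of Spp1 and Gpnmb. The border-type share of 39.9% in metastasis was 29.7% with at least 3 UMIs over Ms4a7, Pf4 and Lyz2, 33.3% with microglial genes under 0.05%, 35.5% under 5 UMIs of Spp1 and Gpnmb, 43.8% with Spp1 and Gpnmb under 0.2% of UMIs, 15.4% after thinning to 1000 UMIs (naive 12.7%), 29.7% with a class limit of 5 UMIs and 14.5% without Ccl8, Stab1 and Clec4n.

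At a mean of 20 CPM and of 200 CPM, metastasis over naive gave 362 and 59 higher and 408 and 44 lower. Border-type cells gave 948 and 135 higher and 1087 and 86 lower, monocyte-type over border-type 245 and 53 higher and 270 and 32 lower, and cells low over cells high in Spp1 279 and 42 higher, with 30 lower at 200 CPM. Subtraction of free RNA from 10 to 100 and from 100 to 300 UMIs gave 575 and 384 higher and 527 and 436 lower for metastasis over naive, 872 and 802 lower in border-type cells, and 253 and 241 higher and 362 and 338 lower for monocyte-type over border-type. The fractions subtracted were too high for the Ttr level in both settings. Thinning gave 387 lower in metastasis, 1866 lower in border-type cells, and 286 higher and 264 lower in monocyte-type cells. With at least 3 UMIs over Ms4a7, Pf4 and Lyz2, 132 genes were higher and 81 lower in metastasis, and 287 higher and 113 lower against cells high in Spp1. With at least 10, 87 were lower in monocyte-type cells, and 90 higher and 27 lower against cells high in Spp1. With microglial genes under 0.05%, 257 were lower in monocyte-type cells, and 213 higher and 106 lower against cells high in Spp1. The mean of each cell's CPM gave 88 lower in monocyte-type cells and 84 higher against cells high in Spp1, median-of-ratios scaling gave 75 lower against them, and a class limit of 5 UMIs gave 726 lower in border-type cells. Without cells with endothelial genes 86 were lower in monocyte-type cells and 31 against cells high in Spp1, and without Ccl8, Stab1 and Clec4n 76 were lower in monocyte-type cells.

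Log2 ratios that changed sign were mostly of vessel, red cell and neutrophil genes. For monocyte-type over border-type, thinning gave 0.37 for Cd34, Col4a1 and Ctla2a, 0.46 for Igfbp7 and 0.61 for Sparc. The border list without Ccl8, Stab1 and Clec4n gave 1.01 for Cd34, 2.52 for Col4a1, 0.58 for Ctla2a, 1.7 for Emcn, 1.75 for Igfbp3, 2.51 for Igfbp7, 1.52 for Kdr and 0.93 for Sparc, and -0.035 for Col4a1 in border-type metastasis over naive. At least 10 UMIs over Ms4a7, Pf4 and Lyz2 gave 0.44 for Emcn, 0.26 for Igfbp3 and 0.32 for Kdr, and leaving out cells with endothelial genes 0.25 for Igfbp3 and 0.051 for Kdr. Against cells high in Spp1, Ctla2a was -0.28 with at least 10 UMIs of the 3 genes and -0.56 without cells with endothelial genes, and Igfbp3 was -0.080 without them. For metastasis over naive, Ctla2a was -0.73 after thinning and -0.45 without those cells, and Igfbp7 was -0.32 with at least 10 UMIs and -0.47 without those cells. In border-type cells of metastasis over naive, Hba-a2, Hbb-bs and Hbb-bt were 0.42, 0.25 and 0.37 with doublets removed and 0.52, 0.24 and 0.75 without cells with endothelial genes, where Hba-a1 was 0.31. Without cells with genes of other types Hba-a2 was 0.38 and Hbb-bt 0.34, and after thinning Hbb-bt was 0.90, Cd59a 1.45 and Mgl2 2.63. Sostdc1 was 1.34 with a class limit of 5 UMIs. Ptn was 0.28 without cells with genes of other types over all members, and 1.05 in border-type cells, or 0.16 there with doublets removed. Without cells with S100a8 and S100a9, S100a8 was 0.21, S100a9 0.17 and Wfdc21 0.035 in metastasis over naive, S100a9 was -0.034 and Lcn2 -0.50 in monocyte-type over border-type, and S100a8 -1.22 against cells high in Spp1. In border-type cells the median of alternative activation was 0.031 without Ccl8, Stab1 and Clec4n, and that of heat shock 0.34 after thinning, where 7 naive cells were left.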
